A study of Homo sapiens with 6 samples.

Results

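The genes described here are the numbered cadherins (CDH genes) and the protocadherins (PCDH genes) in RNA-seq of Hs578T breast cancer cells with and without knockdown of CCN3. They were chosen by a rule on the symbol, as CDH or PCDH followed by a number. The letters of the α, β and γ protocadherin clusters were allowed between them. The rule was set with earlier results of these data known. Of the 46427 genes in the table, 87 met this rule. They were 23 cadherins, 53 clustered protocadherins (15 α, 16 β and 22 γ) and 11 non-clustered protocadherins. No read was counted in any library for 15 of them, and 53 passed the filter on low counts and were tested.

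Cadherins are calcium-dependent adhesion proteins that bind the same kind of cadherin on a neighbouring cell. Classical cadherins hold adherens junctions together and are tied to the actin cytoskeleton by p120, β-catenin and α-catenin, and exchange of E-cadherin for N-cadherin is a known feature of carcinoma cells that have become mesenchymal. Protocadherins lack the catenin-binding tail. The clustered ones are encoded side by side on the long arm of chromosome 5, where each variable exon has a promoter of its own, and they are best known for giving neurons a surface identity. In the α and γ clusters the variable exons are spliced to constant exons that all members of the cluster share, whereas β genes are single-exon genes.

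Hs578T is a human triple-negative breast cancer line of mesenchymal character, and CCN3 (NOV) is a secreted matricellular protein. Both groups were Hs578T cells transduced with a pSUPER retrovirus, selected in puromycin as clones and grown in DMEM with 10% FBS. The shCTRL group carried control shRNA and the shCCN3 group a CCN3 shRNA (shRNA #2 in the study's methods). Only 1 CCN3 shRNA was sequenced, and the number of clones behind each group is not given in the sources used here, so an effect of CCN3 loss cannot be told apart from an effect of that shRNA or of the selection of the line. Each group had 3 libraries, described by the submitters as independent biological replicates without a statement of what was independent, so that p-values may measure only the spread between cultures of the same selected cells.

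CPM, a gene's counts scaled to the total of its library after TMM normalization, is the unit of all levels below. Library totals lay between 56159110 and 68393177 counts, and 3 counts, the upper limit that a count of 0 allows, were 0.0435 to 0.0540 CPM per library, which covers counting error only. CCN3 was 103, 102 and 98.1 CPM in shCTRL and 47.4, 47.2 and 46.5 CPM in shCCN3 cells, in the direction of the labels. The mesenchymal markers VIM, FN1, SPARC, CD44, ZEB1 and AXL were present in all libraries and summed to 14151 to 14325 CPM in shCTRL and 13412 to 13627 CPM in shCCN3 cells. Of these 6 genes 1 fell, CD44 (-0.25, adjusted p = 0.00429 in edgeR's quasi-likelihood test), and none rose, while the luminal marker EPCAM had no more than 0.0447 CPM in any library. CLDN5, CD3E and RBFOX3, markers of endothelial cells, T cells and neurons, had no counts. Other markers of such cell types were present, so these low or absent genes do not settle identity. In the mean of shCTRL and of shCCN3 cells, the luminal KRT18 was 163 and 231 CPM and the endothelial PECAM1 3.57 and 3.43 CPM. The leukocyte marker CD68 was 102 and 58.5 CPM, and the neural SNAP25 4.65 and 3.15 CPM. Library 2 of shCCN3 stood apart from the other shCCN3 libraries, with a chi-square per degree of freedom of 37.1 and 45.3 against them, compared with 9.82 between those 2 and 7.02 to 22.1 within shCTRL. It was also the lowest shCCN3 library for 36 of the 53 tested members, and values without it are given where they change a call. Within shCTRL, library 3 was the lowest for 30 and library 1 the highest for 26 of the 53 members. The shares of such extremes over all genes were not computed.

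Of the 53 tested members, 22 were called, that is, passed an adjusted p of 0.05 in edgeR's quasi-likelihood test, which was 41.5% against 33.4% of all 17419 genes tested. The 22 were 10 that rose (16.2% of all genes did) and 12 that fell (17.3% of all genes). In 24 members the 3 shCCN3 libraries lay wholly above or wholly below the 3 shCTRL libraries, 11 above and 13 below, where 46.3% of all genes showed such separation. A change of at least 2-fold was called in 12 members, against 8.1% of all genes. The median log2 fold change of the tested members was 0.05 (0.01 over all genes), with a range from -2.93 for PCDHGC5 to 3.40 for CDH10. By class, 7 of 10 cadherins, 13 of 38 clustered and 2 of 5 non-clustered protocadherins were called. Without shCCN3 library 2 the counts were 6, 15 and 2 members, with CDH24 lost and PCDHGB2 and PCDHGB6 added, and 7276 of all genes were called. In bulk RNA, fewer cells that express a gene cannot be told apart from less RNA per cell.

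Of the 5 classical type I cadherins, CDH2 and CDH15 were tested and CDH2 rose. CDH2, which encodes N-cadherin, was 95.01, 90.004 and 82.03 CPM in the 3 shCTRL libraries and 167, 143 and 177 CPM in the 3 shCCN3 libraries. All shCCN3 libraries were above all shCTRL libraries. CDH2 rose 1.82-fold, a log2 fold change of 0.87 (SE 0.0894, adjusted p = 9.06e-05), and was called in all 12 alternative settings (other scalings, filters or tests, a replicate block, or a library left out) with values of 0.80 to 0.95. CDH1, which encodes E-cadherin of epithelial cells, had 2, 2 and 5 counts in shCTRL and 5, 0 and 9 counts in shCCN3 libraries and was too low to test. P-cadherin, the CDH3 product that marks myoepithelial cells, had 0, 0 and 0 counts against 0, 4 and 4 counts, and CDH4, the retinal cadherin, had none. CDH15, the muscle cadherin, was 1.49 ± 0.326 CPM in shCTRL cells against 1.53 ± 0.171 CPM in shCCN3 cells (mean ± SD, n = 3 libraries each) and its groups overlapped. E-cadherin mRNA was thus at or near the limit of detection in both groups.

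Type II classical cadherins moved in both directions. Of 13 genes, 6 had no counts, among them CDH5, the VE-cadherin of endothelium, and 7 were tested. CDH10 and CDH9 rose, CDH6, CDH12 and CDH24 fell, and CDH11 and CDH18 were not called. CDH10, a cadherin known mainly from brain, was 0.626, 0.541 and 0.670 CPM in shCTRL and 7.22, 5.13 and 7.06 CPM in shCCN3 libraries. The lowest shCCN3 library held more than the highest shCTRL library by a wide margin, and the log2 fold change was 3.40 (SE 0.185, adjusted p = 2.02e-06). CDH9, another type II cadherin of nervous tissue and kidney, was 0.786, 0.780 and 0.551 CPM in shCTRL and 3.15, 2.27 and 3.19 CPM in shCCN3 libraries. Its groups did not overlap either, and it rose 4.06-fold, a log2 fold change of 2.02 (SE 0.217, adjusted p = 0.000114).

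CDH6, the kidney cadherin that is also found in several carcinomas, was 18.2, 18.5 and 18.3 CPM in shCTRL and 9.01, 8.995 and 9.89 CPM in shCCN3 libraries. These were the tightest replicates among the tested members in shCTRL cells, and all shCCN3 libraries were lower. The CV of 0.917% was below the 2.87% that counting alone gives, so it is no measure of precision. The log2 fold change of CDH6 was -0.98 (SE 0.0776, adjusted p = 1.80e-05), with -1.03 to -0.95 over the alternative settings. CDH12, a brain type II cadherin, was 14.3, 11.8 and 12.5 CPM in shCTRL and 9.12, 7.54 and 9.03 CPM in shCCN3 libraries, and fell with a log2 fold change of -0.59 (SE 0.110, adjusted p = 0.00304). CDH24 was 14.7, 14.1 and 17.1 CPM against 13.1, 11.8 and 12.7 CPM. The shCCN3 libraries lay below without overlap, but the difference was small, with a log2 fold change of -0.29 (SE 0.0942, adjusted p = 0.0431), and was called in only 4 of 12 alternative settings. The call was lost in the fit without a filter, with the replicate block and whenever any of the 6 libraries was left out, where the adjusted p reached 0.161.

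CDH11, the OB-cadherin of osteoblasts and stromal cells, was 153, 139 and 126 CPM in shCTRL and 126, 98.3 and 132 CPM in shCCN3 libraries. The ranges overlapped and the log2 fold change of -0.23 (SE 0.114, adjusted p = 0.153) was not called in any setting. CDH18, a further neural type II cadherin, was 37.4 ± 1.04 CPM in shCTRL cells against 39.9 ± 3.25 CPM in shCCN3 cells (mean ± SD, n = 3 libraries each), with a log2 fold change of 0.10 (SE 0.0744, adjusted p = 0.370). CDH18, CDH12, CDH10, CDH9 and CDH6 lie in this order on the short arm of chromosome 5, from position 19471296 to 31329146 of GRCh38. Along that stretch 1 gene was not called, 1 fell, 2 rose and 1 fell, against a median log2 fold change of 0.06 over the 829 genes tested on this chromosome. The 10 nearest tested non-members of CDH10, CDH9 and CDH12 lay up to 4.66, 4.65 and 4.53 Mb away. These neighbours ranged from -3.85 to 7.69 on the log2 scale, with 4, 5 and 6 of them called and medians of 0.16, 0.26 and 0.07. Their part in the changes of these cadherins was not tested.

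CDH13 encodes T-cadherin, which is held in the membrane by a lipid anchor and has no cytoplasmic tail. It was 68.6, 63.2 and 62.04 CPM in shCTRL and 161, 133 and 165 CPM in shCCN3 libraries. All shCCN3 libraries were well above the shCTRL libraries. CDH13 rose 2.36-fold, a log2 fold change of 1.24 (SE 0.0883, adjusted p = 9.69e-06), with 1.19 to 1.33 over the alternative settings. It lies on chromosome 16 from 82626969 to 83800640. The 10 nearest tested genes that are not members, up to 1.33 Mb away, had a median log2 fold change of 0.82, with 6 of them called. For chromosome 16 as a whole the median was 0.01. The part of this neighbourhood in the rise of CDH13 was not tested. The other cadherins of mixed structure, CDH16, CDH17, CDH23 and CDH26, had no counts or too few to test.

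**Figure D1:**
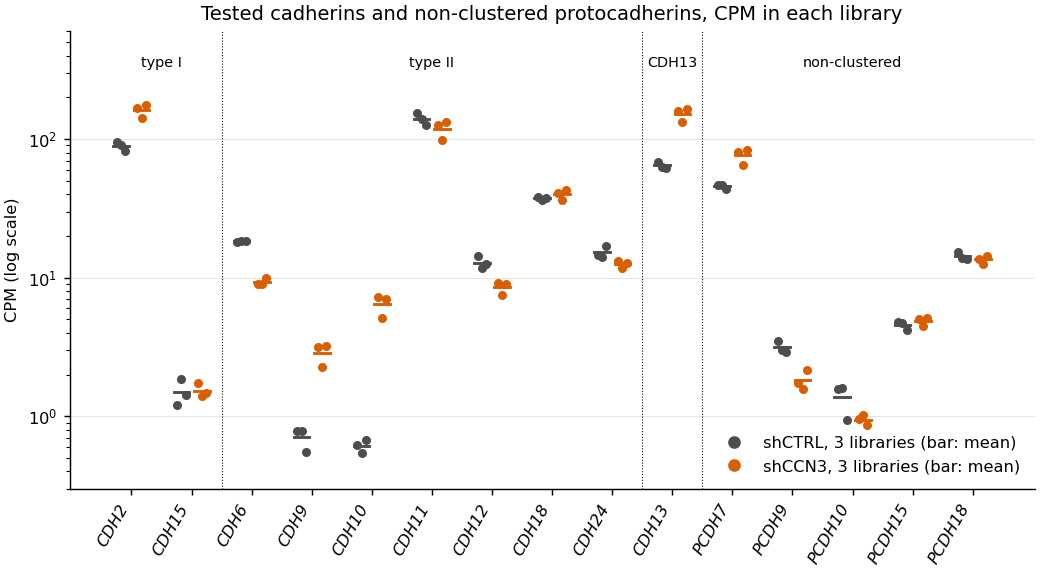
CPM on a log axis of the 10 tested cadherins and the 5 tested non-clustered protocadherins, with 1 point per library (grey shCTRL, orange shCCN3, n = 3 each) and a bar at the group mean. The orange points of CDH2, CDH9, CDH10, CDH13 and PCDH7 lie above the grey ones, those of CDH6, CDH12, CDH24 and PCDH9 lie below, and the other 6 genes overlap.

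Because CPM counts more reads on longer transcripts, levels of different genes were compared per kilobase of merged exon. On that scale PCDHGC3 (20.9 ± 1.08 CPM per kb) and CDH2 (17.98 ± 1.32) led in shCTRL cells, followed by CDH11 (12.7 ± 1.24), CDH18 (8.75 ± 0.245) and CDH13 (6.68 ± 0.360, all SD, n = 3). In shCCN3 cells the order was CDH2 (32.8 ± 3.50 CPM per kb), CDH13 (15.8 ± 1.77), CDH11 (10.8 ± 1.62) and PCDHGC3 (10.7 ± 0.881), where the last pair differed by less than their SD. These orders are among the 87 members only, and the γ values carry the uncertainty of shared exons described below. They also depend on the length used, here the merged exons of all coding transcripts of a gene. For CDH13 that length was 9668 bases, against 2722 for its transcript with the longest coding sequence. For CDH2 the same lengths were 4950 and 4332 bases, so CDH13 would stand higher relative to CDH2 on the transcript length.

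Non-clustered protocadherins are scattered over the genome and include the δ group, whose cytoplasmic tails bind signalling and actin-regulating proteins. Of 11 genes, 5 were tested, 1 rose and 1 fell. PCDH7, a δ protocadherin that has been studied in metastasis of breast cancer cells, was 46.8, 46.9 and 43.8 CPM in shCTRL and 80.8, 65.4 and 83.02 CPM in shCCN3 libraries. Its groups were apart, with a log2 fold change of 0.74 (SE 0.0923, adjusted p = 0.000287). The median over its 10 nearest tested genes, up to 5.34 Mb away on chromosome 4, was -0.52 on the same log2 scale, opposite in sign to PCDH7. PCDH9, a δ protocadherin of brain, was 3.52, 3.02 and 2.92 CPM in shCTRL and 1.74, 1.58 and 2.17 CPM in shCCN3 libraries and fell, with a log2 fold change of -0.78 (SE 0.166, adjusted p = 0.00581).

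PCDH10, PCDH15 and PCDH18 were not called. PCDH10, a δ protocadherin often silenced in tumours, was 1.59, 1.61 and 0.938 CPM in shCTRL and 0.957, 1.03 and 0.860 CPM in shCCN3 libraries, with 2 shCTRL libraries above and 1 within the shCCN3 range. Its log2 fold change was -0.54 (SE 0.245, adjusted p = 0.125), and it passed the threshold only when shCTRL library 3 was left out (-0.75, adjusted p = 0.0279, same edgeR test). PCDH15, a tip-link protein of inner-ear hair cells, was 4.58 ± 0.340 CPM in shCTRL cells against 4.86 ± 0.349 CPM in shCCN3 cells (mean ± SD, n = 3 libraries each). PCDH18 was 14.3 ± 0.887 CPM in shCTRL cells against 13.6 ± 0.898 CPM in shCCN3 cells (mean ± SD, n = 3 libraries each), a log2 fold change of -0.07 (SE 0.0864, adjusted p = 0.568). PCDH19, a δ protocadherin whose loss causes an epilepsy, had 0, 0 and 0 counts in shCTRL and 6, 26 and 19 counts in shCCN3 libraries. It did not pass the filter and was detected in the shCCN3 libraries alone, at least 6.26-fold higher in the mean than the limit of 3 counts per shCTRL library. In the fit without a filter it was called (adjusted p = 0.00600).

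The clustered protocadherins of chromosome 5 lie between 140786140 and 141512975 of GRCh38. The α cluster was close to silent, with 2 of 15 genes tested and none called, and its summed level was 1.62 ± 0.0881 CPM in shCTRL and 1.07 ± 0.265 CPM in shCCN3 cells (mean ± SD, n = 3), lower in all shCCN3 libraries. PCDHA4 was 0.902, 0.461 and 0.447 CPM in shCTRL and 0.653, 0.144 and 0.0469 CPM in shCCN3 libraries, overlapping through shCCN3 library 1, and its log2 fold change was -1.07 (SE 0.699, adjusted p = 0.283). Without that library it was -2.67 and called (adjusted p = 0.0126, same edgeR test), so that 1 library decided the value. PCDHAC1, the other α gene tested, had counts in 1 shCTRL and 2 shCCN3 libraries. Among β genes 15 of 16 were tested, and 4 fell, none rose and 11 were not called. Among γ genes 21 of 22 were tested, and 5 rose, 4 fell and 12 were not called, so that both directions occurred within 1 cluster. The share called was 26.7% of tested β and 42.9% of tested γ genes, against 33.4% of all genes. Of all genes 16.2% rose and 17.3% fell.

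Each variable exon of the clusters is driven by its own promoter, and many of these promoters are known to hold a conserved sequence element that contains CGCT. The RefSeq promoter table (GRCh38.p14, 250 bases before to 50 bases after each start, gene strand) held 47 of the 53 clustered members. CGCT, read as written on the gene strand, was found in 12 of 13 α, all 14 β and all 20 γ promoters, against 54.3% of the 35116 promoters in the table (either strand: 70.0%). The windows of 30 bases around the CGCT nearest to 60 bases before the start are shown for 11 called members, since these carry the changes described below, and for PCDHGB5, whose window matches that of PCDHGB4. Capitals mark CGCT, and all are on the plus strand of chromosome 5. In the γ genes that rose:
PCDHGA2: aattatttaggcctctgagcgtCGCTgttg
PCDHGA3: aaacggttaggcctcttagtgtCGCTgttg
PCDHGA4: aacaggttaagactctgggtgtCGCTgttc
PCDHGA6: attaagttaggactctaagcgtCGCTgttg
PCDHGB4: tcctagtgctgactctgggcgcCGCTgttg
In γ genes that fell, and in PCDHGB5, which was not called:
PCDHGA8: aactatttaggactgtaagcgcCGCTgttc
PCDHGB7: ccgtcggccagtgcagagcaagCGCTgacg
PCDHGB5: tcctagtgctgactctgggcgcCGCTgttg
In the β genes that fell:
PCDHB2: actcggaagagacgcggggtggCGCTgcag
PCDHB16: actcagtgagaacgcgtggtggCGCTgcag
PCDHB9: tgtgttggaagccacaaggtggCGCTgcag
PCDHB12: aatctgtggagacgcgtggtggCGCTgcag

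These windows lie at chr5:141338697-141338726 (PCDHGA2), chr5:141343761-141343790 (PCDHGA3), chr5:141354954-141354983 (PCDHGA4), chr5:141373829-141373858 (PCDHGA6), chr5:141387611-141387640 (PCDHGB4), chr5:141392562-141392591 (PCDHGA8), chr5:141417601-141417630 (PCDHGB7) and chr5:141397857-141397886 (PCDHGB5). The β windows lie at chr5:141094538-141094567 (PCDHB2), chr5:141182304-141182333 (PCDHB16), chr5:141187068-141187097 (PCDHB9) and chr5:141208637-141208666 (PCDHB12). Around CGCT the subfamilies differed in their letters. GCGCTGC was found on the gene strand in 11 of 14 β and in no α or γ promoter (5.58% of all promoters), GCCGCT in 13 of 20 γ and in no α or β promoter (12.3% of all), and TGTCGCT in 10 of 13 α, 1 of 14 β and 3 of 20 γ promoters (0.977% of all). Each of the 3 longer motifs contains CGCT. The γ motif GCCGCT stands in the windows of PCDHGB4, which rose, of PCDHGA8, which fell, and of PCDHGB5, which was not called. PCDHGB4 and PCDHGB5 share all 30 letters of the window and lie on either side of PCDHGA8 in the cluster. Their transcripts also share 54.3% of their 100-base stretches with each other, the highest share between γ genes. How reads on such stretches were divided between PCDHGB4 and PCDHGB5 is not given, so the contrast between their calls is uncertain. A match is a description of letters and no evidence of a bound factor. PCDHGC5, PCDHGA12, PCDHA3, PCDHA13, PCDHB6 and PCDHB11 had no entry.

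Of the β genes, PCDHB2, PCDHB16, PCDHB9 and PCDHB12 fell. PCDHB2 was 10.6, 10.6 and 9.34 CPM in shCTRL and 5.34, 4.44 and 5.75 CPM in shCCN3 libraries, and PCDHB16 was 6.55, 7.19 and 5.53 CPM against 2.81, 3.08 and 3.19 CPM. In both genes no shCCN3 library reached the lowest shCTRL library. PCDHB2 fell 1.96-fold, a log2 fold change of -0.97 (SE 0.117, adjusted p = 0.000232), and PCDHB16 fell 2.12-fold, a log2 fold change of -1.09 (SE 0.131, adjusted p = 0.000234). PCDHB9 was 1.63, 2.42 and 1.39 CPM in shCTRL and 0.740, 1.13 and 0.750 CPM in shCCN3 libraries, a log2 fold change of -1.05 (SE 0.270, adjusted p = 0.0147). PCDHB12 was 1.31, 1.46 and 1.19 CPM against 0.769, 0.864 and 0.735 CPM, a log2 fold change of -0.74 (SE 0.196, adjusted p = 0.0166). Both separated without overlap, at 47 to 152 counts per library, but both lost their call without shCCN3 library 1 (adjusted p = 0.0565 for PCDHB9 and 0.0520 for PCDHB12 in the same edgeR test), without shCCN3 library 3 and without shCTRL library 2.

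PCDHB13, PCDHB14 and PCDHB15 were not called. PCDHB13 was 7.38 ± 0.649 CPM in shCTRL cells against 6.74 ± 0.387 CPM in shCCN3 cells (mean ± SD, n = 3 libraries each), PCDHB14 was 7.29 ± 0.280 CPM in shCTRL cells against 6.16 ± 0.859 CPM in shCCN3 cells (mean ± SD, n = 3 libraries each) and PCDHB15 was 7.05 ± 0.415 CPM in shCTRL cells against 5.89 ± 0.399 CPM in shCCN3 cells (mean ± SD, n = 3 libraries each). PCDHB15 was lower in all 3 shCCN3 libraries, with a log2 fold change of -0.26 (SE 0.102, adjusted p = 0.0818), and PCDHB5 was higher in all 3, with 0.48 (SE 0.192, adjusted p = 0.0855), without passing the threshold. PCDHB3, PCDHB4, PCDHB7, PCDHB8, PCDHB10 and PCDHB11 lay between 0.483 and 1.23 CPM in the mean of either group, with log2 fold changes from -0.39 to 0.10, and PCDHB6 had 0.41. Summed over the 16 β genes the level was 49.2, 50.3 and 44.4 CPM in shCTRL and 36.4, 33.7 and 36.7 CPM in shCCN3 libraries. The β sum of shCCN3 cells was thus lower in every library, 1.35-fold in the mean.

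**Figure D2:**
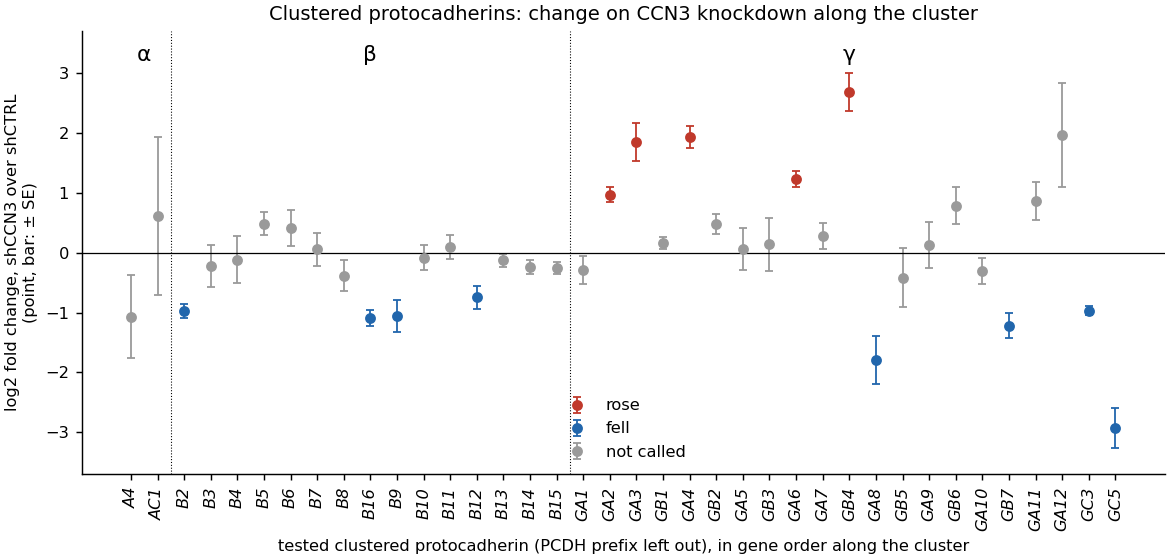
Log2 fold change of shCCN3 over shCTRL cells (y axis, point with ± SE) for the 38 tested clustered protocadherins in gene order along the cluster (x axis, PCDH prefix left out), coloured by call. The 4 called β genes lie between -1.09 and -0.74, and the called γ genes spread from -2.93 (PCDHGC5) to 2.68 (PCDHGB4).

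In the γ cluster, 4 genes of the A type and 1 of the B type rose. PCDHGA4 was 7.23, 6.97 and 6.91 CPM in shCTRL and 32.2, 18.5 and 29.5 CPM in shCCN3 libraries. The shCTRL libraries had a CV of 2.42%, where counting alone gives 4.63%. Even shCCN3 library 2, the lowest of its group, was above all shCTRL libraries. PCDHGA4 rose 3.81-fold, a log2 fold change of 1.93 (SE 0.182, adjusted p = 5.39e-05). PCDHGB4 was 1.02, 1.23 and 0.715 CPM in shCTRL and 7.12, 3.60 and 8.19 CPM in shCCN3 libraries and rose 6.41-fold, a log2 fold change of 2.68 (SE 0.317, adjusted p = 0.000205), the largest rise of a clustered member. PCDHGA3 was 2.18, 2.31 and 0.819 CPM against 6.58, 5.29 and 7.28 CPM and had a log2 fold change of 1.85 (SE 0.317, adjusted p = 0.00179). Its shCTRL library 3 was lower than the other two, and all shCCN3 libraries were higher than all 3. PCDHGA6 was 3.99, 4.22 and 4.99 CPM in shCTRL and 11.9, 9.25 and 9.77 CPM in shCCN3 libraries, a log2 fold change of 1.23 (SE 0.133, adjusted p = 0.000117). PCDHGA2 was 6.74, 6.65 and 6.87 CPM against 15.3, 10.7 and 13.7 CPM, a log2 fold change of 0.97 (SE 0.128, adjusted p = 0.000391). All 5 genes were called in all 12 alternative settings, none of which varied how reads on shared γ exons were divided.

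The 4 γ genes that fell were PCDHGC3, PCDHGC5, PCDHGA8 and PCDHGB7. PCDHGC3, the C-type isoform that is widely expressed outside the nervous system, was 111, 104 and 100.3 CPM in shCTRL and 48.6, 56.3 and 56.3 CPM in shCCN3 libraries. The shCCN3 libraries were in the mean at 0.511 of the shCTRL level without overlap, a log2 fold change of -0.97 (SE 0.0761, adjusted p = 1.73e-05). PCDHGC5, the last variable exon of the cluster, was 6.56, 5.27 and 6.96 CPM in shCTRL and 0.928, 0.324 and 1.17 CPM in shCCN3 libraries, the largest fall of any tested member with a log2 fold change of -2.93 (SE 0.333, adjusted p = 0.000161). PCDHGB7 was 13.4, 24.2 and 18.3 CPM against 9.76, 7.32 and 6.94 CPM, a log2 fold change of -1.22 (SE 0.209, adjusted p = 0.00184). PCDHGA8 was 5.01, 9.20 and 2.62 CPM in shCTRL and 1.77, 1.13 and 1.92 CPM in shCCN3 libraries, a log2 fold change of -1.79 (SE 0.406, adjusted p = 0.00817). The shCTRL libraries of PCDHGA8 spread 59.4% around their mean, and all of them were above the shCCN3 libraries. All 4 falls were called in all 12 alternative settings, which likewise left the division of reads on shared γ exons unchanged.

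The γ genes that were not called included several whose libraries disagreed. PCDHGA12 was 1.13, 0.0955 and 0.104 CPM in shCTRL and 1.93, 2.91 and 0.485 CPM in shCCN3 libraries, and PCDHGB5 was 2.26, 2.37 and 2.52 CPM against 3.61, 0.738 and 0.938 CPM. In PCDHGA12 shCTRL library 1 was inside the shCCN3 range, and in PCDHGB5 shCCN3 library 1 was above all shCTRL libraries while the other shCCN3 libraries were below. With each library left out in turn, PCDHGA12 was called without shCTRL library 1 (4.12, adjusted p = 0.00796), where the other shCTRL libraries held 6 and 7 counts, and PCDHGB5 without shCCN3 library 1 (-1.50, adjusted p = 0.00121, same edgeR test). The library left out is in each case the one that lay apart, so these values are a description and give no support to a difference. PCDHGB2 (0.47, adjusted p = 0.0545), PCDHGA11 (0.87, adjusted p = 0.0618) and PCDHGB6 (0.78, adjusted p = 0.0792) were close to the threshold and were called in 5, 4 and 3 of 12 alternative settings. PCDHGA1, PCDHGA5, PCDHGA7, PCDHGA9, PCDHGA10, PCDHGB1 and PCDHGB3 had log2 fold changes from -0.31 to 0.28 and were called in no setting. Of these PCDHGB1 was 11.1 ± 1.18 CPM in shCTRL cells against 12.3 ± 0.749 CPM in shCCN3 cells (mean ± SD, n = 3 libraries each). PCDHGC4 had too few counts to test.

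**Figure D3:**
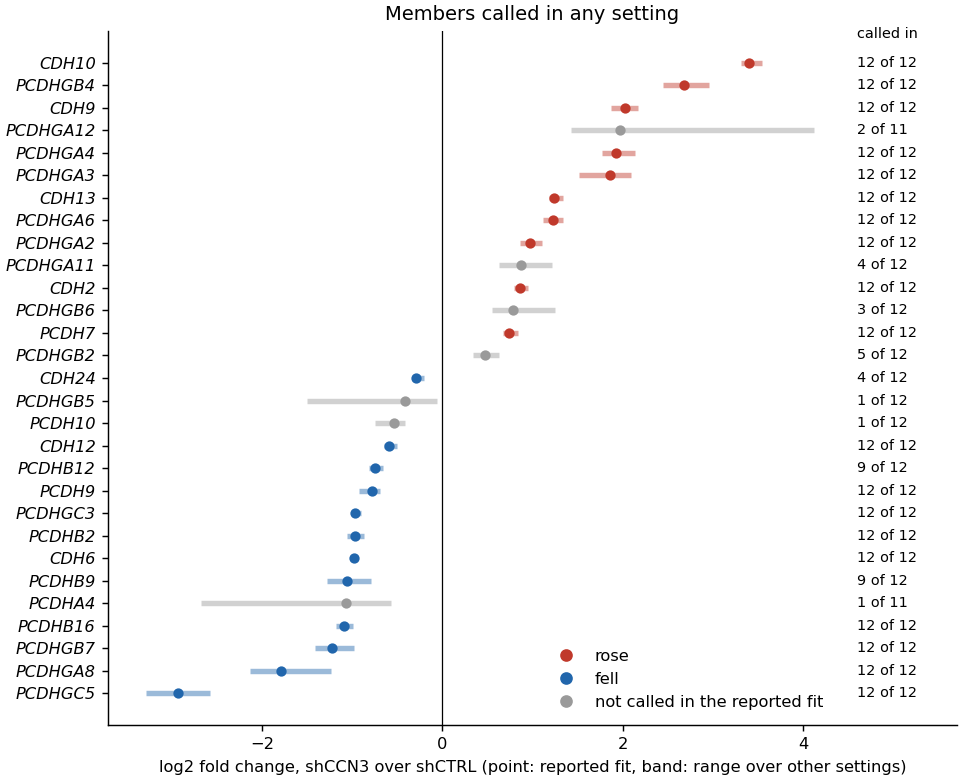
Log2 fold change of shCCN3 over shCTRL cells (x axis) for the 29 tested members called in the reported fit or in any alternative setting, with the reported value as a point and the range over the alternative settings as a band. PCDH19, called without a filter, was not tested in the reported fit and is not shown. The number beside each gene is how many of the settings called it. 19 of the 22 called members were called in every setting, and no band crosses 0.

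The total output of the γ cluster overlapped between the groups. The sum over the 22 γ genes was 204 ± 10.6 CPM in shCTRL and 184 ± 20.3 CPM in shCCN3 cells (mean ± SD, n = 3). In its make-up, the shares of PCDHGC3 and of the A-type genes did not overlap between the groups, while that of the B-type genes did. PCDHGC3 supplied 52.4%, 49.9% and 52.2% of γ counts in shCTRL and 24.6%, 35.1% and 29.2% in shCCN3 libraries. The 12 A-type genes together supplied 21.5 ± 0.681% in shCTRL and 42.6 ± 3.01% in shCCN3 cells, and their sum was 43.9 ± 2.84 CPM against 78.5 ± 13.3 CPM without overlap. The 7 B-type genes overlapped between the groups, at 48.7 ± 6.21 CPM in shCTRL and 50.4 ± 9.84 CPM in shCCN3 cells. Their share of γ counts overlapped too, at 23.8 ± 2.44% and 27.3 ± 2.49%. PCDHGA4 alone supplied 3.45% of γ counts in shCTRL and 14.4% in shCCN3 cells in the mean.

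**Figure D4:**
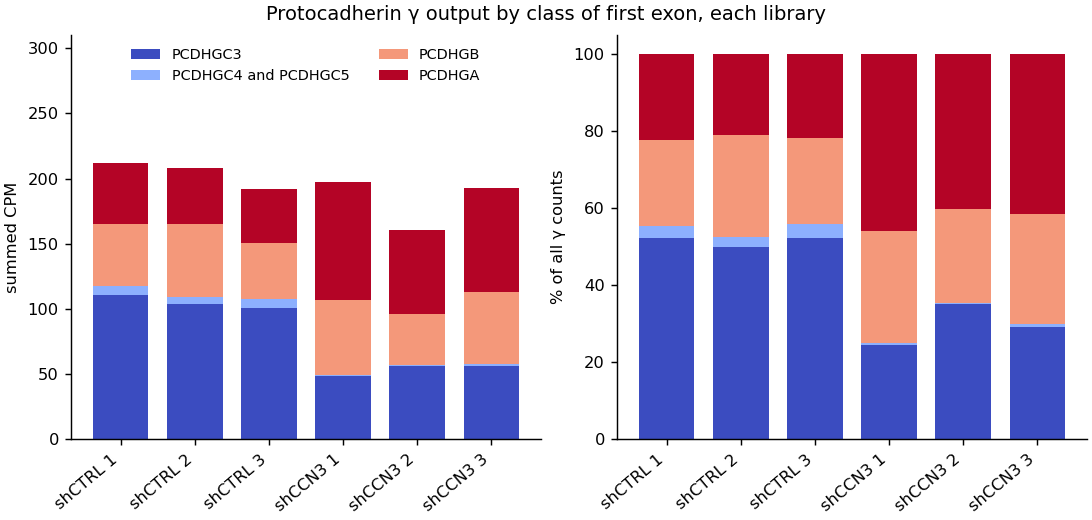
Protocadherin γ counts of each library, split into PCDHGC3, PCDHGC4 with PCDHGC5, the 7 PCDHGB genes and the 12 PCDHGA genes, as stacked CPM (left) and as a percentage of all γ counts (right). PCDHGC3 takes 49.9% to 52.4% of γ counts in the shCTRL libraries and 24.6% to 35.1% in the shCCN3 libraries.

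Reads on the shared γ exons fit every γ gene. In GENCODE release 29, a median of 46.8% of the 100-base stretches of a γ transcript (range 44.6% to 55.0%) also occur in another cadherin or protocadherin gene, compared with 54.1% for α, 6.28% for β and 0 for the cadherins and non-clustered protocadherins, except 0.467% at most in 1 type II cadherin. How the authors' counting divided such reads between genes is not given in the sources used here, so the value of each γ and α gene is uncertain to that extent. Values of β genes are uncertain to a lesser extent, with a share of up to 25.7%. Among the β genes that fell it was 11.4% for PCDHB2, 10.7% for PCDHB9, 6.51% for PCDHB16 and 6.1% for PCDHB12. The spread between replicates was also larger for γ genes. The median CV of the 21 tested γ genes was 26.7% in shCTRL and 24.3% in shCCN3 cells, where counting alone gives 5.98% and 5.62%. For the 15 β genes it was 9.97% and 15.4%, where counting alone gives 10.7% and 12.2%, and for the 7 type II cadherins 9.95% and 10.4% against 3.14% and 4.14%. PCDHGC3 was an exception, with 5.16% and 8.25%. The part of shared exons in this spread was not tested.

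**Figure D5:**
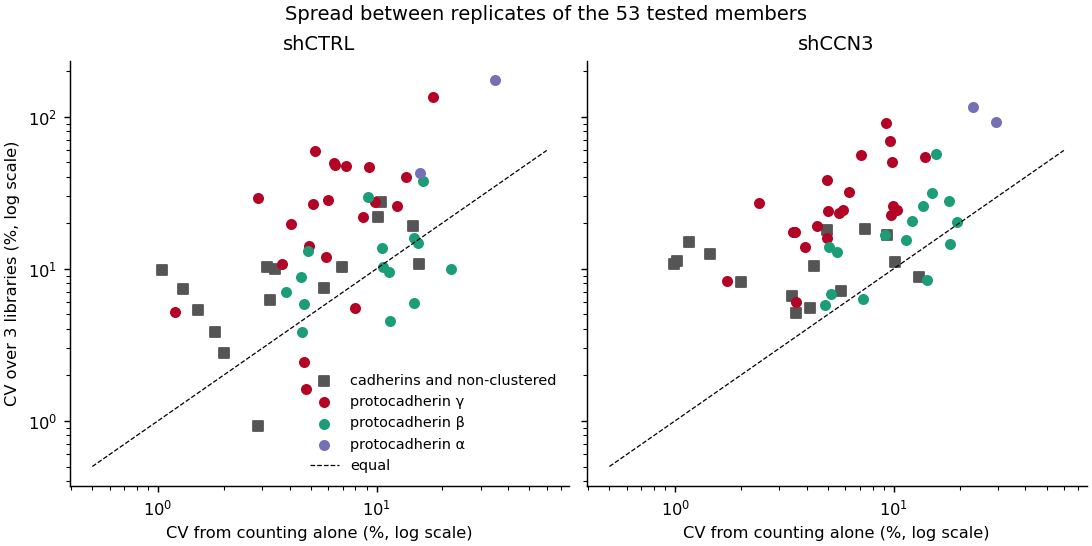
CV of CPM over the 3 libraries of a group (y axis, %, log scale) against the CV that counting alone gives (x axis, %, log scale) for the 53 tested members, shCTRL left and shCCN3 right, with a dashed line where both are equal. Most γ genes lie far above the line, with medians of 26.7% and 24.3%, while β genes lie around it.

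Most genes near the clusters were not called, which also holds for all genes tested, of which 33.4% were called. Within 500 kb on either side of the clustered genes and between them, 27 other genes were tested, of which 1 rose, 3 fell and 23 were not called, with a median log2 fold change of -0.04. TAF7, a TFIID subunit gene that lies between the β and γ genes, was 18.1 CPM in shCTRL and 17.7 CPM in shCCN3 cells in the mean, a log2 fold change of -0.03 (adjusted p = 0.813). DIAPH1, an actin-nucleating formin next to the end of the γ cluster, rose slightly (0.29, adjusted p = 0.00851), and HBEGF, an EGF receptor ligand before the α cluster, fell (-0.93, adjusted p = 5.89e-05, all from the same edgeR test).

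Genes known to regulate the clusters were read from a list of 16 chromatin regulators, all tested. Of these 2 rose, none fell and 14 were not called, with a median log2 fold change of 0.13 (0.01 over all genes). For this list and those below, the share over all genes was 16.2% that rose and 17.3% that fell. CTCF, which binds the cluster promoters and enhancers and loops them together, was 50.8 ± 4.45 CPM in shCTRL cells against 54.8 ± 6.15 CPM in shCCN3 cells (mean ± SD, n = 3 libraries each), a log2 fold change of 0.11 (SE 0.0964, adjusted p = 0.419), and passed the threshold only without shCCN3 library 2 (0.20, adjusted p = 0.0492). The 2 that rose were the cohesin subunits RAD21 (0.50, adjusted p = 0.00265) and STAG2 (0.47, adjusted p = 0.0102), which hold such loops.

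Cytoplasmic partners of classical cadherins and other junction genes were mostly higher or not called. Of 18 genes, 14 were tested, 6 rose, 1 fell and 7 were not called, with a median of 0.22. β-catenin (CTNNB1) was 324 CPM in shCTRL and 336 CPM in shCCN3 cells, α-catenin (CTNNA1) 583 and 620.4 CPM, and p120 (CTNND1) 121 and 147 CPM, with log2 fold changes of 0.05, 0.09 and 0.28, none of them called. CTNND1 was called by DESeq2 (adjusted p = 0.0266) and without shCCN3 library 2 (0.40, adjusted p = 0.000525). AJUBA, a LIM protein recruited to junctions, rose (1.36, adjusted p = 8.71e-06), as did vinculin, VCL (0.50, adjusted p = 0.00574), and the adhesion gene NECTIN3 (0.55, adjusted p = 0.00411), while its relative NECTIN1 fell (-1.15, adjusted p = 4.98e-06).

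Among 12 transcription factors known to repress E-cadherin or to drive the mesenchymal state, 10 were tested, 5 rose, 1 fell and 4 were not called, with a median of 0.41. KLF8 (1.95, adjusted p = 1.80e-05), TCF4 (1.32, adjusted p = 0.000489) and SNAI2, which encodes Slug (0.92, adjusted p = 4.30e-05), rose, and TWIST2 fell (-1.20, adjusted p = 3.27e-05). Of 13 proteases and secretases that cut cadherins, 11 were tested, 1 rose, 3 fell and 7 were not called, with a median of -0.01. ADAM15 (-0.31, adjusted p = 0.00609), MMP14 (-0.28, adjusted p = 0.00551) and the secretase subunit PSEN2 (-0.26, adjusted p = 0.0382) fell, and the proprotein convertase FURIN rose (0.20, adjusted p = 0.0302). The calls of PSEN2 and FURIN were lost with the replicate block and in most fits that left out a library.

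Of 25 other genes of the cadherin superfamily, such as desmosomal cadherins and the large FAT and CELSR proteins, 14 were tested, 4 rose, 2 fell and 8 were not called, with a median of 0.05. CELSR1, a planar polarity cadherin, was 2.46, 1.86 and 1.67 CPM in shCTRL and 8.62, 8.20 and 10.5 CPM in shCCN3 libraries and rose, with a log2 fold change of 2.19 (SE 0.167, adjusted p = 1.43e-05). The groups were well separated. CDHR3 fell (-1.25, adjusted p = 0.000580), and the desmosomal DSC3 (0.59, adjusted p = 0.00499) and DSG2 (0.48, adjusted p = 0.0270) rose, although DSG2 lost its call in 4 of the 6 fits that left out a library. Adjusted p-values are from edgeR's quasi-likelihood test over all 17419 genes unless another test or setting is named beside them.

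Among the markers of other cell types, all 3 tested myoepithelial and basal genes rose. KRT14 was 0.131, 0.127 and 0.223 CPM in shCTRL and 1.81, 2.32 and 2.19 CPM in shCCN3 libraries, TP63 was 5.86 and 9.94 CPM in the mean, and ACTA2 was 0.712 and 3.39 CPM. The 4 genes of this list, with KRT5 near 0, summed to 6.32 to 7.32 CPM in shCTRL and 14.7 to 16.5 CPM in shCCN3 libraries, a range that did not overlap, while CDH3, the cadherin of these cells, stayed at 0 to 4 counts. Neural markers went the other way, with 2 of 3 tested genes lower and a sum of 11.9 to 14.2 CPM in shCTRL against 6.18 to 7.39 CPM in shCCN3 libraries. The luminal list had 1 of 5 tested genes higher and 1 lower (sum 249.5 to 278.9 CPM against 308.9 to 359.1 CPM), the endothelial list none of 2 called (3.90 to 5.47 against 3.61 to 4.43 CPM), and the leukocyte list 1 of 2 lower, CD68 (95.1 to 107.0 against 58.0 to 59.6 CPM). The part of such expression states in the changes of cadherins was not tested.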

How the data were processed

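Stranded mRNA libraries of 6 samples were sequenced by the authors, who deposited raw read counts for 46427 genes by Gene ID and symbol, without normalization. The submitters' processing notes name bcl2fastq 2.20.0, Trimmomatic, HISAT2 2.1.0, StringTie 2.1.3d, DESeq2 and GRCh38, and whether counting used the strand is not given in the sources used here. All 6 columns of per-sample counts were used, and columns not used numbered 0.

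Counts were fitted with edgeR 4.0.16 in R 4.3.3 (TMM, filterByExpr by group, quasi-likelihood test, group as the only term, Benjamini-Hochberg over the 17419 genes left). SE is the log2 fold change divided by the root of F. Members and gene lists were chosen with earlier results of these data known. Named genes are CCN3, members of at least 0.5 CPM in either group or called, 5 marker cadherins, and up to 4 called genes of at least 1 CPM per list, with the catenins and CTCF. PCDH19, PCDHB6, PCDHAC1, PCDHGC4, CDH4, CDH16, CDH17, CDH23, CDH26, TAF7, DIAPH1, HBEGF and the cell type markers were named after their values were seen.

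In data simulated from these libraries, with 200 of 17419 genes changed, edgeR recovered 185 and made 15 false calls, and DESeq2 186 and 33. Alternatives were DESeq2 size factors, upper-quartile scaling, DESeq2 1.42.0, no filter, a minimum of 10 counts per sample, the replicate number as a block, and each library left out. Positions and promoters are from RefSeq (GRCh38.p14, by symbol or Gene ID, all 87 members placed), transcripts from GENCODE release 29, taking the transcript with the longest coding sequence.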

Additional observations from a re-analysis of the deposited data

How the results depend on the processing

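Over the 12 alternative settings no member or list gene named above changed sign among those called. The number of clustered protocadherins that rose was 5 as reported and 8 with DESeq2 and with the replicate block. PCDHGA11 and PCDHGB2 were added by both, PCDHGB6 by DESeq2 and PCDHGA12 by the block. With a library left out the counts lay between 5 and 8 for clustered members that rose (8 without shCTRL replicate 1), and between 6 and 8 for those that fell. Non-clustered protocadherins that rose were 2 without a filter, where PCDH19 was added, and 1 otherwise. Those that fell were 1 to 2 with a library left out, 2 without shCTRL replicate 3, where PCDH10 was added. Cadherins that rose were 4 in every setting, and those that fell 2 or 3, the difference being CDH24. Over all genes 4187 (without shCTRL replicate 2) to 7276 (without shCCN3 replicate 2) were called with a library left out, 4887 with the replicate block and 6189 with DESeq2. Another scaling moved the median log2 fold change by no more than 0.0022.

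The replicate numbers did not pair the samples, since the deviations of same-numbered libraries from their group means correlated by 0.0891, -0.0256 and -0.0657, and only the libraries numbered 1 correlated best with their own number. The block is therefore given as an alternative fit.

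With 3 libraries per group the smallest exact permutation p was 0.1 (two-sided), which is also the value for CCN3. Of the 34 members that were not tested, 15 had no counts in any library, and low expression and limited depth were not separated.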
